A study of Mus musculus with 33 samples.

Results

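Cyp4a10, Cyp4a14, Ehhadh and Acot1 were followed as enzymes that act on fatty acids outside mitochondria and whose genes are targets of the nuclear receptor PPAR alpha. Members were the probe sets annotated to these 4 gene symbols. Each gene had 1 probe set, so 4 of the 12488 probe sets on the array were described, and these stand for 4 of the 8252 genes that carry a symbol of their own. All 4 passed the detection filter (a present call on at least 3 of 33 arrays), and the software called Cyp4a10, Cyp4a14 and Ehhadh present on 33 arrays and Acot1 on 32.

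The study hybridised liver RNA of 33 adult male mice, 1 mouse to an array, in 11 groups, and the strain was not given in the labels used here. Of these, 5 mice were fasted for 24 h with no injection. A further 24 mice were fasted for 22 h, injected with vehicle (saline with ethanol) or with 10 mg/kg rapamycin, and taken 2 h after that (0 h) or let eat freely for another 3, 6 or 12 h, at 3 mice for each of these 8 groups. The last 4 mice were never fasted; 2 received vehicle and 2 received rapamycin, and their livers were taken 24 h after the injection. Rapamycin inhibits the kinase mTORC1, which responds to nutrients and insulin. Hours of food, the time since injection and the time of death moved together, and their parts cannot be told apart. Nonfasted livers, taken 24 h after the injection, also differed from 0 h and refed ones in the time since injection.

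During a fast, fatty acids released from fat tissue reach the liver and act as ligands of PPAR alpha, which pairs with RXR and turns on genes of fatty acid uptake and oxidation. Most fatty acids are oxidised in mitochondria, and very long or dicarboxylic ones are shortened in peroxisomes. Cytochromes P450 of the Cyp4a family sit in the endoplasmic reticulum (the microsomal fraction) and hydroxylate the methyl end of a fatty acid, the first step towards a dicarboxylic acid. Ehhadh is the peroxisomal bifunctional enzyme that carries out the hydratase and dehydrogenase steps of peroxisomal beta-oxidation. Acot1 is a cytosolic thioesterase that splits acyl-CoA into free fatty acid and coenzyme A. All 4 genes are textbook PPAR alpha targets in mouse liver.

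In the RefSeq annotation of GRCm38.p6, Cyp4a10 lies at chr4:115518287-115533649 and Cyp4a14 at chr4:115486200-115496158. Ehhadh lies at chr16:21761285-21787834 and Acot1 at chr12:84009502-84017670. The probe sets were 92600_f_at for Cyp4a10, 101103_at for Cyp4a14, 97316_at for Ehhadh and 103581_at for Acot1. The "_f_" in the first name marks probes shared within a gene family, so its signal can include close Cyp4a relatives. Acot1 also has near-identical neighbours in its gene family, and how much of its signal comes from them was not tested.

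Promoter sequences from RefSeq (GRCm38.p6) were at hand for Ehhadh and Acot1, the members with the larger falls on refeeding. The 250 bases before each annotated start are shown 5′ to 3′ on the gene's own strand, with CCAAT in capitals on either strand (read as ATTGG on the opposite one).
Ehhadh: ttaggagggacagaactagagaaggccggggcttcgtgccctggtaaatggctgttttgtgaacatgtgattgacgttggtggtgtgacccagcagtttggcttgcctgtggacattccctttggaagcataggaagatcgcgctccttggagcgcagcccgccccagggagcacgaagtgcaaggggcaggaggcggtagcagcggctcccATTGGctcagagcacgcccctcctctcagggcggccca
Acot1: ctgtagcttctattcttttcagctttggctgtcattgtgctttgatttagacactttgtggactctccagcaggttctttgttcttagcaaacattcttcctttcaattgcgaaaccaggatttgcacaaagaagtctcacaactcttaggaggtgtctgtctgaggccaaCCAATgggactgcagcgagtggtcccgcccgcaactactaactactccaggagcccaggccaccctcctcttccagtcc
The Ehhadh window is chr16:21787835-21788084 (minus strand) and the Acot1 window is chr12:84009252-84009501 (plus strand). CCAAT began 79 bases before the start of Acot1, and its reverse complement began 38 bases before that of Ehhadh. Of 32851 promoter windows of this length in the table, 33.8% held CCAAT on either strand. CCGCCC stood in both members' windows and in 32.7% of all windows. AGGTCA, the half-site of nuclear receptors, was in neither window and in 14% of all windows on either strand, and its direct repeat with 1 base between the copies (DR1) was in neither and in 0.0335% of all. A match of letters does not show binding, and its absence from this window says nothing of sites elsewhere.

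Intensities are the authors' deposited values on a linear scale, and a log2 change is from 1 limma fit over all 33 arrays, with p-values adjusted (Benjamini-Hochberg) over 6568 probe sets. A gene was called where the adjusted p was under 0.05. The arrays formed 2 sets that differed in how many values were not positive, 35 to 40.8% of values on 16 arrays (set 1) and 24.2 to 28.2% on 17 arrays (set 2). Vehicle 0 h, vehicle 6 h, fasted uninjected and nonfasted rapamycin livers were all in set 1, while rapamycin 0 h, vehicle 3 h, both 12 h groups and nonfasted vehicle were all in set 2. Rapamycin 3 h and 6 h livers were in both sets. Members' results that cross the sets are followed by values with the set as a term in the fit. Among 10 measured hepatocyte markers, Alb ran from 5245 to 8442 over the 33 arrays, and the cholangiocyte markers Krt19, Krt7 and Epcam were called present on 0 arrays.

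All 4 members were far lower in livers of mice that had never been fasted than in fasted livers at 0 h. Cyp4a10 read 653 and 410 in the nonfasted vehicle livers and 3059, 2743 and 2944 in the vehicle 0 h livers. Cyp4a14 read 944 and 697 against 3507, 3398 and 3509. Ehhadh read 67 and 56 against 601, 597 and 574. For each of these genes every nonfasted liver lay below every 0 h liver. Acot1 read 52 and 34 against 353, 422 and 323, again with no overlap, as 18.3% of all probe sets did in this direction.

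On the log2 scale the nonfasted level was lower by the following amounts in the limma fit. Cyp4a14 fell by 2.10 ± 0.10 (SE; adjusted p = 1.02e-12), which was the smallest p of all 6568 probe sets, and Cyp4a10 ranked 4th with its fall of 2.49 ± 0.19. Ehhadh fell by 3.27 ± 0.37 (adjusted p = 5.48e-07) and Acot1 by 3.11 ± 0.35 (adjusted p = 6.69e-07). So 4 of 4 members were called lower, where 10.1% of all probe sets were called lower and 19.1% higher. Fitted with a term for the array set, the changes were -2.70, -2.03, -3.22 and -2.84 for Cyp4a10, Cyp4a14, Ehhadh and Acot1, and all 4 were still called, against 7.58% of probe sets called lower.

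The same contrast could be drawn inside array set 1, between nonfasted rapamycin and fasted uninjected livers, although the drug and the injection then differ too. Cyp4a10 was 255 and 414 in nonfasted rapamycin livers, against 2626 to 3364 (median 3336) in the 5 fasted uninjected ones. Acot1 was 34 and 28 against 509.4 to 695 (median 661). The changes were -3.24 ± 0.17 for Cyp4a10, -2.70 ± 0.10 for Cyp4a14, -3.83 ± 0.34 for Ehhadh and -4.34 ± 0.32 for Acot1, and 4 of 4 were called lower beside 10.9% of all probe sets. No member overlapped between the groups, as 17.1% of probe sets lay lower without overlap.

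Markers of other liver cell types are given beside the feeding state, and their part in the result was not tested. Of 9 tested markers of Kupffer cells, the resident macrophages of the liver, 6 were called higher in nonfasted vehicle than in vehicle 0 h livers (1 with the set as a term), and their summed intensity was 1415 to 1896 against 851 to 911. Inside set 1, 2 of the 9 were called higher in nonfasted rapamycin than in fasted uninjected livers, where the sum was 1695 to 1820 against 890 to 2081, and 0 of 9 were called at 12 h of food with vehicle. Of 5 endothelial markers 2 were called higher and 1 lower in nonfasted vehicle livers (1 and 1 with the set as a term), with sums of 460 to 560 against 271 to 292. Of 4 stellate cell and fibroblast markers 1 was called higher and 2 lower (1 and 0 with the set as a term), with sums of 1003 to 1053 against 1326 to 1471. The 10 hepatocyte markers had a median change of -0.13, with 1 called higher and 1 lower, and their summed intensity was 33560 to 34140 in nonfasted vehicle against 35710 to 39490 in vehicle 0 h livers. Centring each array on the hepatocyte markers left all 4 members called lower. At 12 h of food with vehicle the endothelial sum was 450 to 461 and the stellate cell and fibroblast sum 938 to 1160. In each of these lists 1 marker was called higher and 1 lower at 12 h against vehicle 0 h, also with the set as a term. In bulk tissue, fewer cells of a type and less RNA per cell cannot be told apart.

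**Figure D1:**
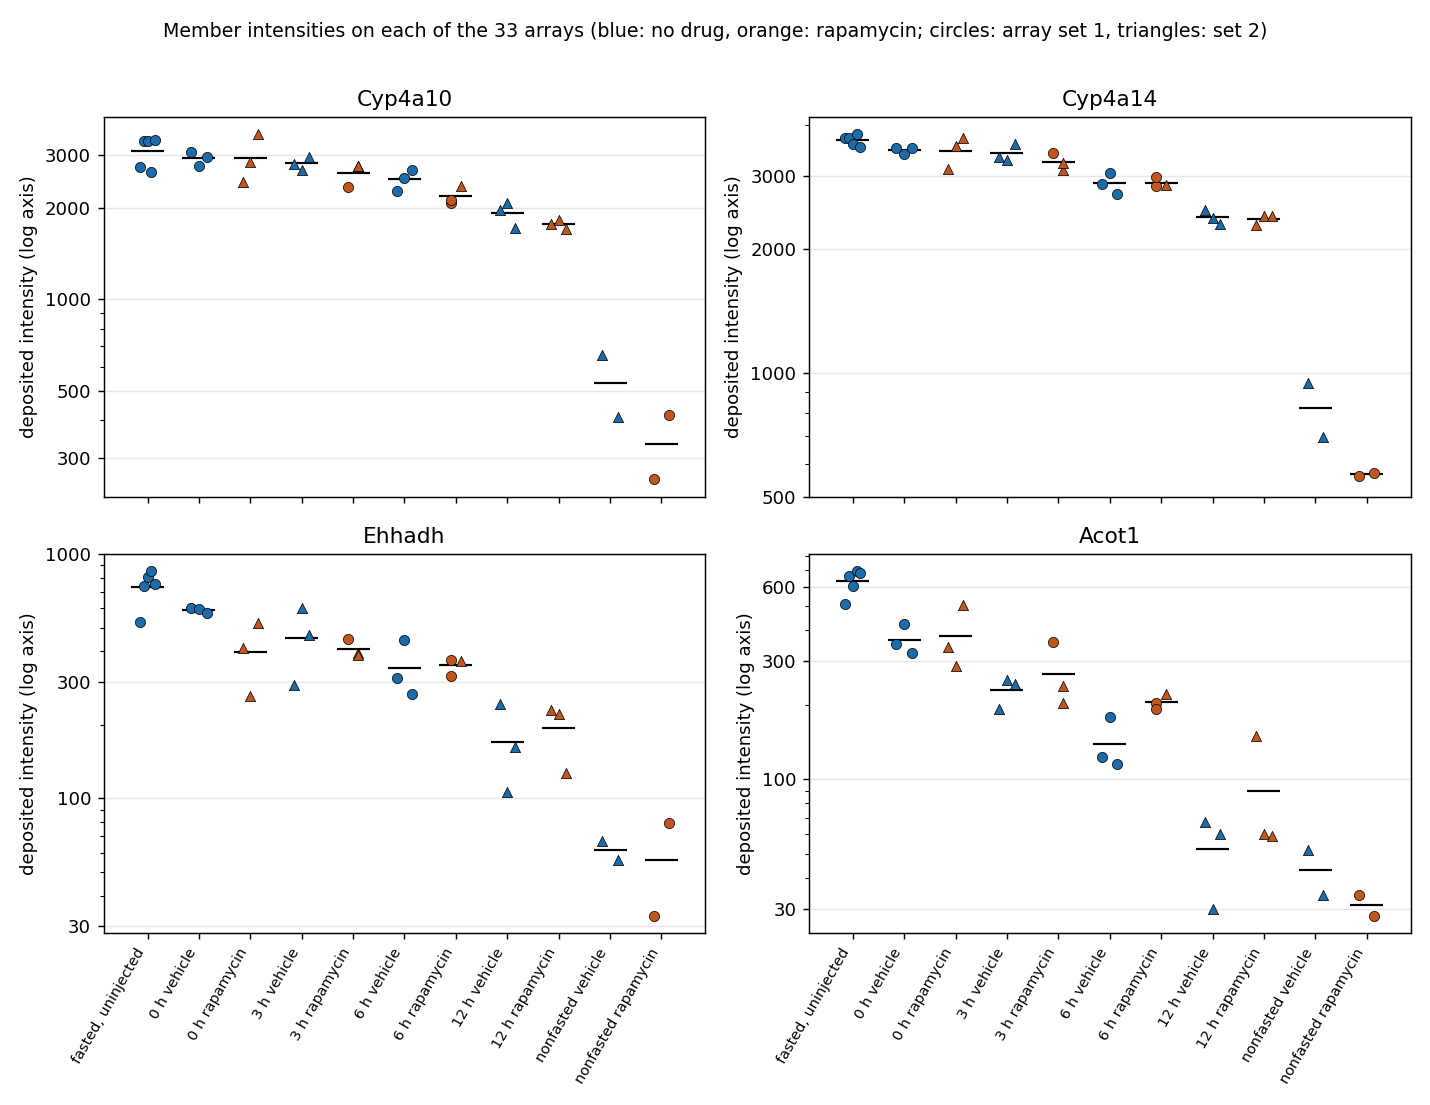
Deposited intensity of each member (log axis) on each of the 33 arrays, by group; short black lines are group means, colours mark vehicle or no injection (blue) and rapamycin (orange), and symbols mark the array set. The nonfasted livers sit apart from all others for Cyp4a10 and Cyp4a14, and the 12 h livers approach or reach them for Ehhadh and Acot1.

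After 12 h of food all 4 members were lower than at 0 h, to unequal extents. Over 12 h with vehicle, mean intensity went to 66.0% of the 0 h mean for Cyp4a10, 68.8% for Cyp4a14, 28.9% for Ehhadh and 14.3% for Acot1.

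The omega-hydroxylases moved late and little. Cyp4a10 read 2803, 2677 and 2938 at 3 h, 2282, 2509 and 2678 at 6 h and 1978, 2076 and 1720 at 12 h. Cyp4a14 read 3339, 3289 and 3605 at 3 h, 2875, 3055 and 2720 at 6 h and 2483, 2381 and 2301 at 12 h. The 3 h livers overlapped those at 0 h for both genes, and the 6 h and 12 h livers lay below every 0 h liver, as 10.7% of probe sets did at 6 h and 11.2% at 12 h. At 12 h Cyp4a10 fell by 0.60 ± 0.17 (SE; adjusted p = 0.00712 in limma) and Cyp4a14 by 0.54 ± 0.09 (adjusted p = 8.29e-05). At 6 h Cyp4a14 was called at -0.27 ± 0.09 (adjusted p = 0.0403), and leaving out any one of vehicle 0 h replicates 1 to 3 or of vehicle 6 h replicates 1 and 3 took it to between 0.0604 and 0.136. Under quantile normalization this change was 0.004, and centred on hepatocyte markers it was -0.04 (adjusted p = 0.86). Cyp4a10 at 6 h was -0.23 ± 0.17 (adjusted p = 0.383).

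Genes typical of hepatocytes were lower over the same 12 h, in a comparison that crosses the array sets. Of 10 hepatocyte markers, 9 were called lower and 1 higher (Ttr, a plasma carrier of thyroid hormone and retinol), with a median change of -0.42, while the median over all probe sets was 0.24. Alb (albumin) changed by -0.34, Apoa1 (the main protein of HDL) by -0.46 and Fgg (a fibrinogen chain) by -0.58. With the set as a term 4 of the 10 were called lower and 1 higher, with a median of -0.27; Alb was -0.27 (adjusted p = 0.245), Apoa1 -0.25 (adjusted p = 0.348) and Fgg -0.63 (adjusted p = 0.0381). The summed intensity of the 10 markers was 26630 to 29980 at 12 h against 35710 to 39490 at 0 h. Centred on these markers, an alternative chosen after seeing the data, Cyp4a10 at 12 h was -0.21 (adjusted p = 0.386) and Cyp4a14 -0.15 (adjusted p = 0.303), neither called. That centring also put the median over all probe sets at 0.636, with 3125 called higher and 197 lower. Why the markers fell was not tested. Under quantile normalization Cyp4a10 was -0.43 (adjusted p = 0.0552).

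Ehhadh and Acot1 fell further, also relative to the hepatocyte markers. Ehhadh read 290, 600 and 465 at 3 h, 311, 447 and 268 at 6 h and 243, 106 and 163 at 12 h, after 574 to 601 at 0 h. Acot1 read 193, 251 and 242 at 3 h, 123, 178 and 115 at 6 h and 67, 30 and 60 at 12 h, after 323 to 422 at 0 h. Acot1 lay below every 0 h liver at 3, 6 and 12 h, as 5.12%, 10.7% and 11.2% of all probe sets did. At 3 h it was not called, at -0.68 (adjusted p = 0.127), or -0.41 with the set as a term. Acot1 changed by -1.42 ± 0.32 at 6 h (adjusted p = 0.00194) and by -2.88 ± 0.32 at 12 h (adjusted p = 2.3e-07). Ehhadh was -0.82 ± 0.33 at 6 h (adjusted p = 0.0779) and fell by 1.87 ± 0.33 at 12 h (adjusted p = 1.02e-04). Centred on the hepatocyte markers both were still called at 12 h, with changes of -1.48 and -2.49.

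In counts, 0 of 4 members were called at 3 h of food with vehicle, where 22.4% of probe sets were called in either direction. That comparison crosses the sets, and with the set as a term the 4 members had adjusted p-values of 0.677 to 0.928. At 6 h 2 of 4 were called lower (6.90% of all probe sets), and at 12 h 4 of 4 (9.30% of all). The 6 h comparison lies within array set 1. The 12 h one crosses the sets, and with the set as a term all 4 were called, at -0.81, -0.47, -1.82 and -2.61 for Cyp4a10, Cyp4a14, Ehhadh and Acot1, where 5.95% of probe sets were called lower. Inside set 2, vehicle 12 h against vehicle 3 h gave changes of -0.55, -0.51, -1.42 and -2.20 in the same order, and again 4 of 4 were called lower beside 5.16% of all. The Cyp4a10 call there had an adjusted p of 0.0363 and was lost on leaving out any 1 of the 6 arrays (0.0555 to 0.137), and the Ehhadh call was lost without vehicle 12 h replicate 2 (0.0527).

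Refeeding under rapamycin gave falls in the same 4 genes at 12 h, all within array set 2. Cyp4a10 went from 2439, 2838 and 3508 at 0 h to 1766, 1824 and 1709. Cyp4a14 went from 3131, 3550 and 3720 to 2283, 2407 and 2403. Ehhadh went from 412, 263 and 521 to a highest of 231 and a mean of 193.3 ± 57.6 (SD, n = 3). The 12 h livers lay below all 0 h livers for each of these genes. Acot1 went from 341, 287 and 508 to 150, 60 and 59, also without overlap, as 22.7% of probe sets lay lower at 12 h.

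The log2 changes were -0.71 ± 0.17 (adjusted p = 0.00304) for Cyp4a10, -0.55 ± 0.09 (adjusted p = 1.3e-04) for Cyp4a14, -1.04 ± 0.33 (adjusted p = 0.0221) for Ehhadh and -2.18 ± 0.32 (adjusted p = 2.14e-05) for Acot1. All 4 were called lower, with 10.4% of all probe sets. The Ehhadh call was lost without rapamycin 0 h replicate 1 or 3 or without rapamycin 12 h replicate 3 (adjusted p of 0.0575, 0.111 and 0.135). Hepatocyte markers fell here too, 7 of 10 called lower and 1 higher with a median of -0.36, and centred on them only Acot1 of the 4 was called, at -1.80 (Ehhadh -0.65, adjusted p = 0.187). That centring put the median over all probe sets at 0.384. At 3 h and at 6 h under rapamycin 0 of 4 members were called, where 2.79% and 20.8% of probe sets were, and the 6 h adjusted p-values were 0.0527 for Cyp4a14, 0.0603 for Acot1, 0.0882 for Cyp4a10 and 0.813 for Ehhadh. Some of the rapamycin 3 h and 6 h arrays were in set 1, and with the set as a term the members' adjusted p-values were 0.487 to 0.989 at 3 h and 0.101 to 0.871 at 6 h.

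**Figure D2:**
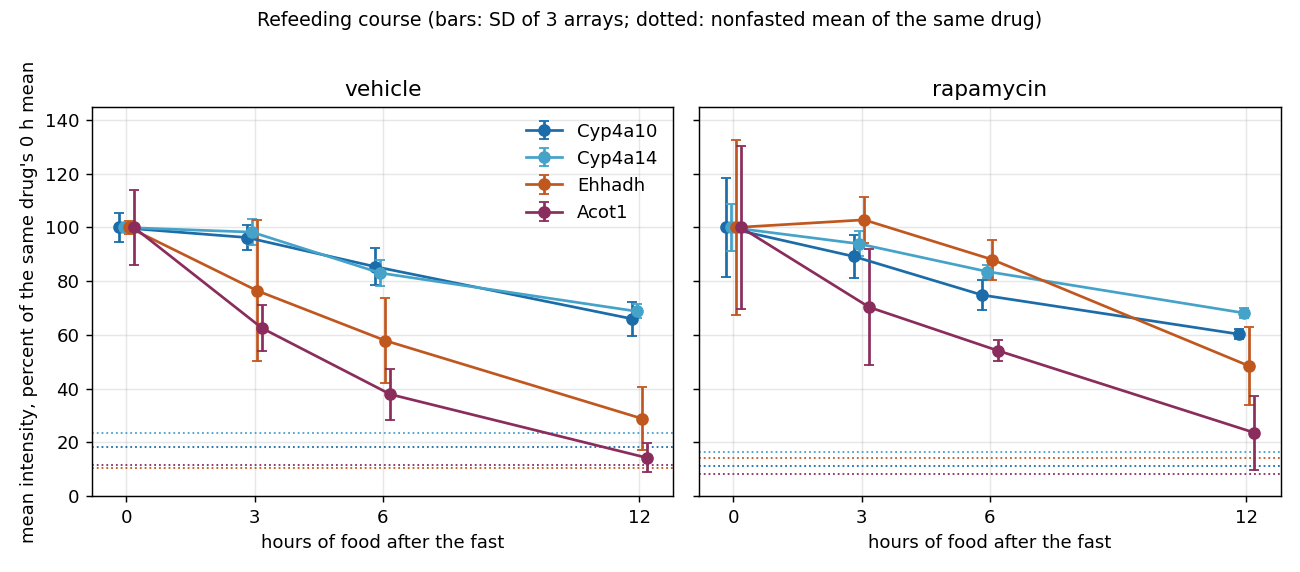
Mean intensity of each member as a percent of the 0 h mean of the same drug (y axis) against hours of food (x axis), with bars for the SD of 3 arrays and dotted lines for the nonfasted mean of the same drug. With vehicle at 12 h, Cyp4a10 and Cyp4a14 stand at 66.0% and 68.8%, Ehhadh at 28.9% and Acot1 at 14.3%.

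The inequality of the falls was tested on ratios between members within an array, which a common scale factor cannot move. A response that differs between high and low intensities could move them. Intensities reached 3805 for Cyp4a14 and went down to 28 for Acot1, and the effect of this on the ratios was not tested. The ratio test was added after the values had been seen. It set the 6 livers at 12 h against the 6 at 0 h, both drugs together, for the 6 pairs of members. The 12 h livers were all in array set 2, while the 0 h livers were in set 1 with vehicle and in set 2 with rapamycin, so the test crosses the sets. The log2 ratio of Cyp4a10 to Acot1 was higher at 12 h by 1.87, and that of Cyp4a14 to Acot1 by 1.99, each with an exact two-sided permutation p of 0.00216 (adjusted p = 0.00649), the smallest that 6 against 6 can give. The ratio of Ehhadh to Acot1 was higher by 1.08 (exact permutation p = 0.00649, adjusted p = 0.013). The ratio of Cyp4a14 to Ehhadh was higher by 0.911 (exact permutation p = 0.0108, adjusted p = 0.0162) and that of Cyp4a10 to Ehhadh by 0.797 (exact permutation p = 0.0216, adjusted p = 0.026). Between Cyp4a10 and Cyp4a14 the ratio moved by -0.113 (exact permutation p = 0.0714), with 12 h livers at -0.492 to -0.198 and 0 h livers at -0.36 to -0.0847. Already at 6 h the 3 ratios to Acot1 were higher, by 0.814 for Cyp4a10, 0.869 for Cyp4a14 and 0.654 for Ehhadh (adjusted exact permutation p of 0.00649, 0.00649 and 0.0346), and the other 3 had adjusted p-values of 0.51 to 0.517. Within 1 drug and 1 set there are 3 livers against 3, and an exact permutation p cannot go below 0.1. Inside set 2 under rapamycin the ratios of Cyp4a10, Cyp4a14 and Ehhadh to Acot1 were higher at 12 h than at 0 h by 1.47, 1.63 and 1.14, without overlap. The ratio of Cyp4a10 to Cyp4a14 changed by -0.165 there, also without overlap. The ratio of Cyp4a10 to Ehhadh (0.325) and that of Cyp4a14 to Ehhadh (0.49) overlapped there. Inside set 1 with vehicle, the ratios to Acot1 were higher at 6 h than at 0 h by 1.19, 1.15 and 0.597, again without overlap. The ratios of Cyp4a10 and Cyp4a14 to Ehhadh were higher in that comparison by 0.593 and 0.553, also without overlap. That of Cyp4a10 to Cyp4a14 (0.0399) overlapped.

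The members also differed in how near 12 h of food brought them to the nonfasted level, a comparison inside array set 2. Cyp4a10 was still 3.71-fold higher at vehicle 12 h than in nonfasted vehicle livers (log2 1.89 ± 0.19; adjusted p = 4.83e-07). Cyp4a14 was 2.94-fold higher (1.56 ± 0.10; adjusted p = 7.56e-10), the smallest p of all 6568 probe sets. Ehhadh was 2.63-fold higher (1.40 ± 0.37; adjusted p = 0.0213), a call that was lost without vehicle 12 h replicate 1 or without either nonfasted vehicle array (adjusted p of 0.13, 0.0813 and 0.246). Acot1 was at 67, 30 and 60 against 52 and 34, groups that overlapped, with a difference of 0.23 and a 95% interval of -0.50 to 0.96. These Acot1 values lie near 30, the authors' own floor, which the fit did not use. With the set as a term the difference was 0.23 with or without a floor of 30. Whether so low a signal hides a difference was not tested. In all 3 of 4 were called higher, where 4.07% of probe sets were. Fitted on these 5 arrays alone, 0 of 4 were called (adjusted p of 0.0599 to 0.141 for the 3).

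Rapamycin against vehicle gave no called member at 0, 3, 6 or 12 h of food. Of all probe sets, 5.36%, 0.305%, 0.0152% and 0.320% were called in these comparisons. The first of these shares stands for 352 probe sets, a count that lay between 164 and 866 on leaving out 1 array (866 without vehicle 0 h replicate 3) and was 3 with the set as a term. The difference between rapamycin and vehicle ranged from -0.18 to 0.01 on the log2 scale over these times for Cyp4a10 and Cyp4a14. With the set as a term the adjusted p-values of all 4 members at 0, 3 and 6 h were 0.866 to 1. The Cyp4a14 intervals, the tightest, ran from -0.20 to 0.19 at 0 h and from -0.21 to 0.18 at 12 h. Ehhadh was 412, 263 and 521 with rapamycin at 0 h against 601, 597 and 574 with vehicle, no overlap, at -0.62 ± 0.33 (adjusted p = 0.285), and 2.42% of probe sets lay lower without overlap in this comparison, which crosses the array sets (-0.57 with the set as a term, adjusted p = 0.866).

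Acot1 was the member with the largest gaps between the drugs after food. At 6 h it read 203, 192 and 221 with rapamycin against 123, 178 and 115 with vehicle, without overlap (0.59 ± 0.32, adjusted p = 0.885), as did 7.13% of probe sets in this direction. With the set as a term this difference was 0.68 (adjusted p = 0.866). At 12 h it read 150, 60 and 59 against 67, 30 and 60, with overlap (0.71 ± 0.32, adjusted p = 0.553 in limma). Averaged over 3, 6 and 12 h, Acot1 was higher with rapamycin by 0.50 ± 0.18 (95% interval 0.12 to 0.87; adjusted p = 0.221 in limma, 0.195 with the set as a term), and was not called where 1.46% of probe sets were. Whether the drug effect differed with refeeding time was tested by the interaction F-test of limma, which called 0 of 4 members (adjusted p of 0.72 to 0.989, and 1 for each with the set as a term) and 1.31% of probe sets.

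In nonfasted livers Cyp4a14 was 562 and 572 with rapamycin against 944 and 697 with vehicle, and Cyp4a10 was 255 and 414 against 653 and 410. Cyp4a14 did not overlap, as 33.6% of probe sets lay lower without overlap, and was called at -0.52 ± 0.11 (adjusted p = 0.0238), while Cyp4a10 overlapped and was not (-0.67 ± 0.21, adjusted p = 0.126). In this comparison 0.929% of probe sets were called lower. It has 2 livers a group and sets array set 1 against set 2, and with the set as a term the Cyp4a14 change of -0.59 had an adjusted p of 0.155 (0.0328 when values were also floored at 30). The call was also lost without nonfasted vehicle replicate 1 (0.458) and without nonfasted rapamycin replicate 1 (0.143) or 2 (0.0633), and Cyp4a10 was called at -1.01 without nonfasted vehicle replicate 2 and at -1.02 without nonfasted rapamycin replicate 2. Ehhadh and Acot1 had adjusted p-values of 0.891 and 0.726.

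Vehicle injection by itself, at the same length of fast, was set against no injection inside array set 1. No member was called, where 5.88% of probe sets were. This share stands for 386 probe sets, a count that was 92, 59 and 1141 without vehicle 0 h replicate 1, 2 and 3. Acot1 was 353, 422 and 323 in vehicle 0 h livers and 509.4 to 695 in fasted uninjected ones, groups that did not overlap, with a change of -0.78 ± 0.28 (adjusted p = 0.102), and 4.02% of probe sets lay lower without overlap. Cyp4a14 did not overlap either, at 3398 to 3509 against 3544 to 3805. Cyp4a10, Cyp4a14 and Ehhadh changed by -0.07, -0.08 and -0.30 (adjusted p of 0.879, 0.613 and 0.604). Against the fasted uninjected livers, vehicle 6 h livers had lower Acot1 (-2.20 ± 0.28), Ehhadh (-1.12 ± 0.29) and Cyp4a14 (-0.35 ± 0.08), 3 of 4 called where 11.6% of probe sets were called lower. Of 10 hepatocyte markers, 5 were called lower in that comparison, and centred on them Cyp4a14 was -0.09 (adjusted p = 0.548), as it was under quantile normalization (adjusted p = 0.404).

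**Figure D3:**
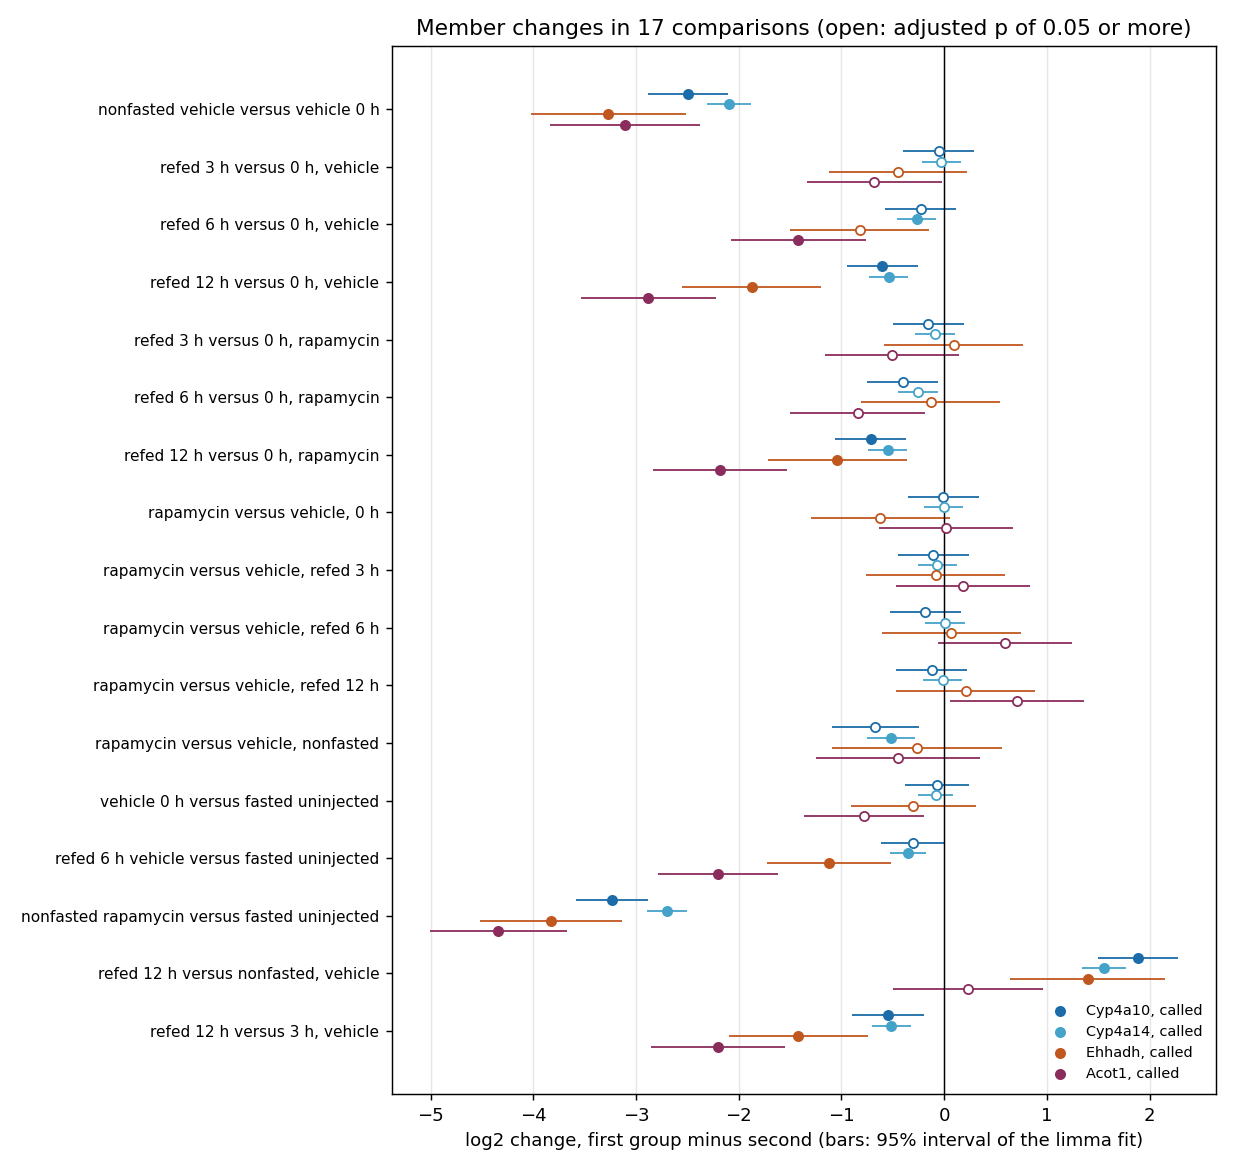
Log2 change of each member (x axis, first group minus second) in 17 comparisons (y axis), with bars for the 95% interval of the limma fit, filled points for an adjusted p under 0.05 and open points for others. All 4 members have filled points below 0 in nonfasted against fasted livers and at 12 h of food against 0 h, and the 4 comparisons of rapamycin with vehicle in fasted and refed livers hold open points alone.

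Ordered by mean log2 level over the 11 groups, all 4 members had fasted uninjected livers at the top and nonfasted rapamycin livers at the bottom. The order came from each member's own means, so neighbours were picked from the values compared, and the steps with their limma p-values are a description. Neighbours can also differ in drug and array set. For Cyp4a10 the step from rapamycin 12 h down to nonfasted vehicle was 1.77 (adjusted p = 2.05e-06), and each of its other steps between neighbours had an adjusted p of 0.126 or more. For Cyp4a14 that step was 1.54 (adjusted p = 9.24e-10), and the one below it, from nonfasted vehicle to nonfasted rapamycin, was 0.52 (adjusted p = 0.0238). For Ehhadh the only called step was from vehicle 12 h to nonfasted vehicle, 1.40 (adjusted p = 0.0213). Acot1 came down in steps of which none was called, the largest being 0.77 from fasted uninjected to rapamycin 0 h (adjusted p = 0.077). Within groups of 3, the coefficient of variation ran from 1.83 to 8.74% for Cyp4a14 and from 7.13 to 58.3% for Acot1.

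Of 22 tested genes of other peroxisomal and microsomal fatty acid enzymes, 10 were called lower and 2 higher in nonfasted vehicle against vehicle 0 h livers, with a median of -0.37 beside 0.11 over all probe sets (7 and 2 with the set as a term). Cyp4a12b, another omega-hydroxylase, fell by 3.40 ± 0.35, from 420 to 38.5. Ephx2, an epoxide hydrolase of peroxisomes and cytosol, fell by 1.13 ± 0.12, and Eci2, a peroxisomal enoyl-CoA isomerase, by 1.03 ± 0.14. Acaa1b, a peroxisomal thiolase, fell by 1.00 ± 0.25 (adjusted p = 0.00365; 0.169 with the set as a term). After 12 h of food with vehicle, 9 of the 22 were called lower and 2 higher (median -0.23; 3 and 1 with the set as a term), among them Eci2 (-1.09 ± 0.13), the acyl-CoA synthetase and transporter Slc27a2 (-0.78 ± 0.11) and Ephx2 (-0.65 ± 0.11). Cyp4v3, a P450 of another Cyp4 family, rose by 0.54 ± 0.18 in nonfasted livers, and Abcd2, a peroxisomal transporter, read 70 ± 10 (SD, n = 3) at 12 h and 36.5 ± 3.54 (n = 2) in nonfasted livers against a mean below 0 at vehicle 0 h.

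Mitochondrial oxidation and ketogenesis genes showed 10 lower and 1 higher of 14 tested in nonfasted against vehicle 0 h livers (median -0.80; 7 and 1 with the set as a term). Acadl, which oxidises long-chain acyl-CoA, fell by 1.46 ± 0.20 and Cpt1a, which admits fatty acids to mitochondria, by 1.37 ± 0.19, while Acads, which acts on short chains, rose by 1.09 ± 0.24. At 12 h of food with vehicle 8 of 14 were called lower and 1 higher (median -0.43, close to the hepatocyte markers' -0.42), and with the set as a term 1 lower and 0 higher. Ppara itself had a mean of 338.3 at vehicle 0 h, 290.7 at vehicle 12 h (-0.21 ± 0.17, adjusted p = 0.351) and 298 in nonfasted vehicle livers (-0.17 ± 0.19, adjusted p = 0.539). Inside set 1 it was called lower than in fasted uninjected livers (mean 429). The change was -0.58 ± 0.15 for vehicle 6 h (mean 285.7, adjusted p = 0.0053 in limma) and -0.65 ± 0.17 for nonfasted rapamycin livers (mean 271.5, adjusted p = 0.00698). Both groups were also injected, and vehicle 0 h livers of the same set were at 338.3 before food. The parts of injection, drug and food in these changes were not tested. Of 9 tested genes for PPAR alpha, its partners and regulators, 2 were called lower and 3 higher in nonfasted livers (1 and 1 with the set as a term); Lpin1, a coactivator and phosphatidate phosphatase, fell by 3.66 ± 0.40, and the lipid-sensing receptor Nr1h3 rose by 0.80 ± 0.15. At 12 h with vehicle 3 of these 9 were called lower and 1 higher (median -0.13; 2 and 1 with the set as a term, median -0.65).

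Other PPAR alpha targets did not move as 1 block. Of 13 tested, 4 were called lower and 1 higher in nonfasted livers (median -0.39, and 3 and 1 with the set as a term). At 12 h of food with vehicle 5 were called lower and 3 higher (median 0.32). With the set as a term these counts were 3 and 2 (median -0.45). Without that term 1705 of all probe sets were called higher at 12 h and 611 lower. Fabp4, 1 of the 3 called higher, had a mean of 21 at 12 h and 6.33 at vehicle 0 h, near the floor. Its change was 1.31 ± 0.51 (adjusted p = 0.0487), and -0.33 with the set as a term (adjusted p = 0.772). Vnn1, which makes pantothenate for coenzyme A, fell by 2.11 ± 0.27 in nonfasted livers and by 1.47 ± 0.24 at 12 h. Angptl4, an inhibitor of lipoprotein lipase, fell by 2.07 ± 0.25 and 1.74 ± 0.23. Gpd1, a glycerol-phosphate dehydrogenase, rose by 1.15 ± 0.26 at 12 h and Acsl5, an acyl-CoA synthetase, by 0.67 ± 0.15. Pdk4, which turns off pyruvate dehydrogenase, fell by 2.26 ± 0.60 at 12 h (adjusted p = 0.00516; 0.109 with the set as a term). With rapamycin against vehicle at 12 h, 0 genes of these 4 lists were called, of 22, 14, 9 and 13 tested, and the lowest adjusted p was that of Eci2 (0.52 ± 0.13, adjusted p = 0.0666).

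**Figure D4:**
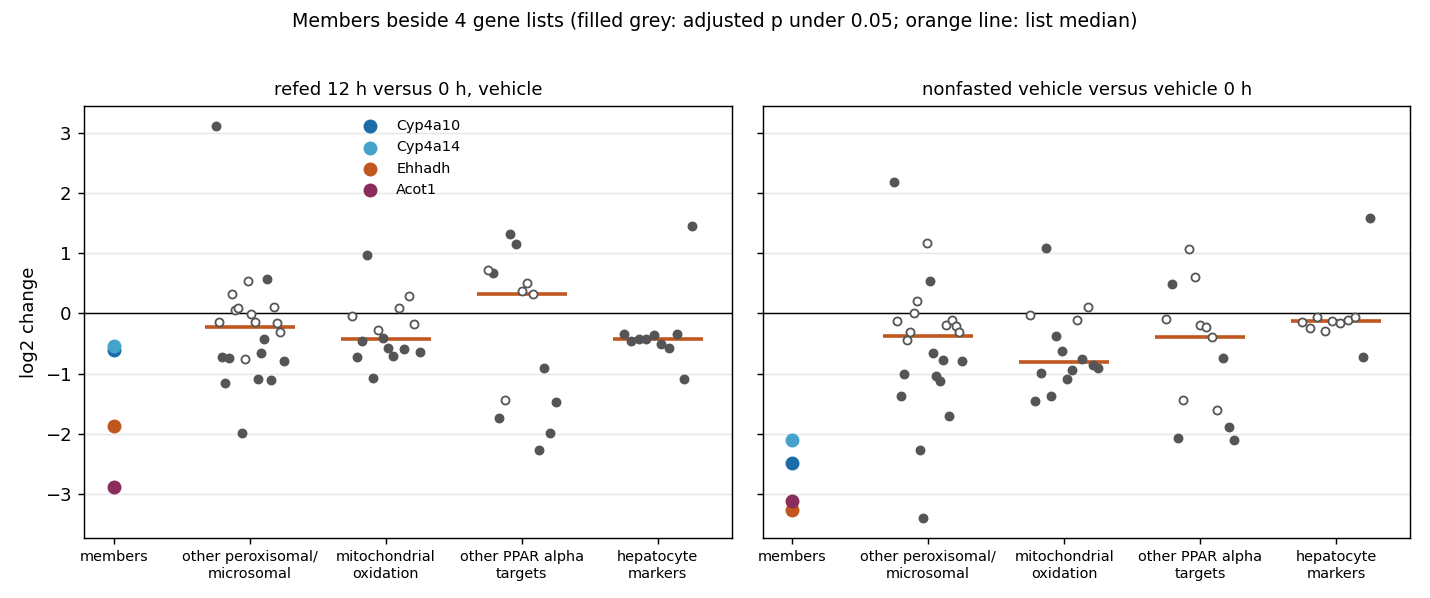
Log2 change (y axis) of the 4 members and of the genes of 4 lists at 12 h of food (left) and in nonfasted livers (right), each against vehicle 0 h; a point is a gene, filled where the adjusted p was under 0.05, and orange lines are list medians. On the left Cyp4a10 and Cyp4a14 lie near the hepatocyte markers, with a median of -0.42, and on the right all 4 members lie far below them (median -0.13).

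Likeness of pattern is given as a description, as Pearson's r of mean log2 level over the 11 groups, which share arrays, array sets and the fasted to nonfasted step. Cyp4a10 and Cyp4a14 had r = 0.999, Ehhadh and Acot1 r = 0.947, and Cyp4a10 and Acot1 r = 0.831. The Cyp4a10 probe set has probes shared within its gene family, and how much of its likeness to Cyp4a14 is shared signal was not tested. With group means removed, array by array, r over the 33 arrays was 0.475 for Cyp4a10 with Cyp4a14, 0.606 for Ehhadh with Acot1 and 0.0461 for Cyp4a10 with Acot1. Apart from each other, the genes nearest to both Cyp4a genes were Stim1 (r = 0.994 with Cyp4a10 and 0.995 with Cyp4a14), a calcium sensor of the endoplasmic reticulum, and Apoa4, an apolipoprotein (0.982 with each). The probe set named Stim1 was at 372 ± 27.8 in vehicle 0 h, 227.7 ± 65.1 in vehicle 12 h and 48 ± 8.49 (SD, n = 2) in nonfasted vehicle livers. Nearest to Ehhadh were Vnn1 (0.984) and Agpat3 (0.983), and nearest to Acot1 were Abcb4 (0.978) and Rbp4 (0.978). Vnn1 was among the 5 nearest genes of both Ehhadh and Acot1 (0.977).

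The authors' deposited table also gives ratios of group means. For refed vehicle livers over fasted uninjected ones, the authors' deposited table lists Acot1 at 0.36, 0.22 and 0.08 after 3, 6 and 12 h, and Cyp4a10 at 0.91, 0.81 and 0.63. For rapamycin over vehicle, the authors' deposited table lists Acot1 at 1.03, 1.16, 1.48 and 1.71 at 0, 3, 6 and 12 h and Cyp4a14 at 1.00, 0.95, 1.01 and 0.99.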

How the data were processed

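Liver RNA of 33 mice was hybridised to Affymetrix MG-U74Av2 arrays, 1 array a mouse, and the number of arrays limits the precision. Per the file headers, the authors deposited linear intensity values for 12488 probe sets, scaled by a factor per array, with negative values kept; the software is not given in the sources used here. Their second table holds detection calls, which were only counted over arrays, and ratio columns, which the authors deposited as ratios of group means; 66 other columns of per-array values were not used. Intensities were used without further scaling, since means of values floored at 30 were 118 to 124 on all arrays. Values under 6.31, which is 0.1 of the average trimmed mean (63.1), were set to it before log2 was taken; no member value lay at the floor. Probe sets called present on at least 3 of 33 arrays were tested (6568, of which those with 1 symbol stand for 5001 genes). Groups came from the labels.

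Contrasts used limma 3.58.1 (R 4.3.3) with 11 group means, 22 residual and 1.89 prior degrees of freedom, Benjamini-Hochberg adjustment and a threshold of 0.05. Exact permutation tests used scipy (version 1.17.1). On simulated data for vehicle 12 h against 0 h over 6568 probe sets, 45 of 100 changes of log2 size 1 and 77 of 100 of size 2 were recovered, with 7 false calls. The simulated noise was independent and normal, with no difference between array sets. The real comparison crosses the sets, so these counts do not give its error rate. Symbols come from the platform annotation (10855 probe sets with 1 symbol, 396 with several, 1237 with none), positions from RefSeq GRCm38.p6. For other genes of a list, the probe set of highest mean was used. Named were the 4 members; of each list the 3 smallest p-values per direction in 3 comparisons, of which the text gives some, with Acaa1b, Cpt1a, Ppara and Pdk4; and the 5 genes nearest a member in pattern. The hepatocyte centring and the ratio tests between members were added after values were seen, as were the hepatocyte markers named. The members and the lists were chosen with earlier results of these data known. Alternatives varied the scaling, floor, detection filter and eBayes options, added the array set or the replicate number to the fit, fitted the compared groups alone, or dropped 1 array at a time. Same-numbered mice of different groups deviated with r of -0.427 to 0.213, so replicate numbers were not taken as pairs.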

Additional observations from a re-analysis of the deposited data

How the results depend on the processing

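Counts of the 4 members called kept within 1.5 times the reported count in 214 of 234 recalculations that kept all arrays. With vehicle at 3 h the count went from 0 to 2 after scaling to 1 trimmed mean. At 6 h with vehicle it went from 2 to 1 with the floor halved, with the replicate block, with only the groups compared and centred on hepatocyte markers, and lay between 1 and 2 on leaving out 1 array. At 6 h with rapamycin it went from 0 to 1 with quantile normalization, the floor doubled, a floor of 30, no detection filter or the array set with a floor of 30, to 2 with trended robust eBayes, and lay between 0 and 2 on leaving out 1 array (2 without rapamycin 0 h replicate 1). Centred on hepatocyte markers, the 12 h counts went from 4 to 2 (vehicle), 1 (rapamycin) and 2 (vehicle 12 h against 3 h). The last lay between 2 and 3 on leaving out 1 array. In nonfasted livers rapamycin went from 1 called member to 0 with 1 trimmed mean, the array set, the replicate block, only the groups compared or the hepatocyte centring, and lay between 0 and 2 on leaving out 1 array. Vehicle 12 h against nonfasted went from 3 to 0 with only the groups compared. All 4 members were called lower in nonfasted livers, in both comparisons, under every alternative run. The cause of these shifts was not tested.

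Of the changes of sign, 1 touched a called result, Cyp4a14 at 6 h with vehicle under quantile normalization. Under quantile normalization Cyp4a10 was 0.018 at 3 h with vehicle, and Cyp4a14 was 0.107 at 3 h and 0.004 at 6 h with vehicle, 0.027 and 0.003 with rapamycin, and -0.011 for the drug at 6 h. Cyp4a14 was 0.046 at 3 h and 0.067 for the drug at 0 h with the array set, with or without a floor of 30. Hepatocyte centring gave Cyp4a10 0.059 at 3 h and 0.004 at 6 h with vehicle, Cyp4a14 0.088 at 3 h with vehicle and 0.061 and 0.067 at 3 and 6 h with rapamycin, Ehhadh 0.191 at 6 h with rapamycin, and Acot1 -0.033 for the drug at 0 h. Scaling to 1 trimmed mean gave drug effects of -0.186 for Acot1 at 0 h, 0.015 for Cyp4a14 and 0.002 for Ehhadh at 3 h, -0.042 and 0.02 for Cyp4a14 at 6 and 12 h. On leaving out 1 array, Ehhadh with rapamycin ranged from -0.18 to 0.314 at 3 h and from -0.404 to 0.089 at 6 h. The drug effect ranged at 0 h from -0.147 to 0.116 for Cyp4a10, -0.058 to 0.066 for Cyp4a14 and -0.217 to 0.194 for Acot1, at 3 h from -0.369 to 0.156 for Ehhadh and -0.051 to 0.361 for Acot1, at 6 h from -0.033 to 0.051 for Cyp4a14 and -0.091 to 0.278 for Ehhadh, at 12 h from -0.041 to 0.014 for Cyp4a14 and -0.092 to 0.507 for Ehhadh, and in nonfasted livers from -0.892 to 0.367 for Ehhadh. Acot1 at 12 h against nonfasted ranged from -0.074 to 0.593.

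With the replicate number as a block Cyp4a14 lost its calls at 6 h with vehicle (adjusted p = 0.0659) and for the drug in nonfasted livers (0.0585), and Cyp4a10 at 12 h against 3 h (0.0508), but the numbers did not pair the mice. Over all probe sets, the count called at 12 h with vehicle was 2316, and 1023 with the array set or 1261 with only the groups compared, and in nonfasted against 0 h vehicle livers 1921, 1034 and 794. In the same order the counts were 1471, 176 and 579 at 3 h with vehicle and 1366, 619 and 570 at 6 h with rapamycin, and 352, 3 and 142 for the drug at 0 h. With only the groups compared, 1384 became 443 at 6 h with vehicle, 183 became 28 at 3 h with rapamycin, 386 became 18 for vehicle against no injection (117 centred on hepatocyte markers, and also fewer by over 1.5 times with the block) and 394 became 46 for 12 h against nonfasted (602 with a floor of 30, 928 centred). Quantile normalization gave 908 at 3 h with vehicle. Over the alternatives, leaving out 1 array included, the drug counts ranged from 1 to 51 at 3 h, 0 to 7 at 6 h, 0 to 77 at 12 h and 0 to 107 in nonfasted livers (20, 1, 21 and 66 as deposited), and the interaction count of 86 ranged from 6 to 232. On leaving out 1 array, counts that moved by over 1.5 times lay between 1117 and 1967 for nonfasted against 0 h vehicle livers, 918 and 1920 at 3 h with vehicle, 86 and 225 at 3 h and 822 and 1427 at 6 h with rapamycin, 164 and 866 for the drug at 0 h, 59 and 1141 for vehicle against no injection, 769 and 1547 for nonfasted rapamycin against fasted uninjected livers (1561 as deposited), 80 and 361 for 12 h against nonfasted and 428 and 635 for 12 h against 3 h with vehicle (720 as deposited). At 12 h with vehicle 73.6% of calls were higher as deposited, 54.1% under quantile normalization, 47% with 1 trimmed mean and 94.1% centred on hepatocyte markers, and the median change of all probe sets was 0.243, 0.0114, -0.004 and 0.636. With 1 probe set a gene, averaging probe sets gives no other value. Acot1 was at or below 30, the authors' own floor, on 2 arrays, and on 0 arrays at the floor of 6.31 used here.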
